A study of Mus musculus with 8 samples.

Results

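The cytosolic ribosomal protein genes, which encode the protein part of the ribosome outside the mitochondria, were described in 8 pieces of mouse liver. Members were the protein-coding genes whose symbol starts with Rps, Rpl or Rplp and a number, without the Rps6k kinases and the pseudogenes named with -ps. Of 393 names that match the pattern, 10 Rps6k genes, 291 -ps copies and 7 other genes that are not protein-coding were left out, which gave 85 members among the 54838 genes of the files. They comprise 33 Rps and 52 Rpl genes. Of these, 76 encode core subunits, 30 of the small and 46 of the large subunit, 8 are paralogs or retrocopies, and Rps19bp1, named for a protein that binds Rps19, is not a subunit.

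All 8 pieces came from wild-type male C57BL/6J mice injected on day 15 with DEN (diethylnitrosamine, which causes liver tumours) and kept on HFD, a high-fat diet, plus SW (left unexplained in the labels), with a time point of 30 weeks. The labels call 4 pieces tumour and 4 non-tumour, so the non-tumour pieces carry the same carcinogen and diet, and no untreated liver is compared here. Whether the pieces are from different animals is not stated, and the p-values thus reflect only sample-to-sample spread, which may be technical.

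Total counts per library ran from 15446690 to 21977052. Tumours 2 and 4 held nearly the same counts, and so did non-tumour 2, 3 and 4: the chi-square per degree of freedom was 1.58 to 3.28 in these 4 pairs and 71.7 to 165 in the other 24. Near-identical libraries were therefore counted once, which left 5 profiles, 3 of tumour (1, 2/4 and 3) and 2 of non-tumour (1 and 2/3/4). Levels are given in CPM, read counts divided by a library size scaled with the trimmed mean of M values (TMM). Hepatocyte markers summed to 178800, 137400 and 120300 CPM in tumour 1, 2/4 and 3. In non-tumour 1 and 2/3/4 they summed to 100100 and 112900 CPM, below every tumour profile. Markers of bile duct cells summed to 405 CPM in tumour 1 and 193 CPM in tumour 2/4, against 22.6, 35.0 and 36.6 CPM in tumour 3, non-tumour 1 and non-tumour 2/3/4. In bulk tissue, fewer cells of a type and less RNA per cell cannot be told apart.

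A cytosolic ribosome joins a small subunit, which reads the mRNA, to a large subunit, which links the amino acids. Most of its proteins are present in the same number of copies, and their mRNAs are known for a run of pyrimidines at the very start, the 5′ terminal oligopyrimidine (TOP) motif, through which the growth-controlling kinase mTORC1 regulates their translation. Most of the genes have many processed pseudogenes, copies of the mRNA inserted elsewhere in the genome. Liver makes large amounts of protein, and ribosome production is known to accompany its growth.

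The starts of 7 members are shown because the TOP run is the feature this gene family is known for. The Rps27 family also differs in whether a run falls exactly at the annotated start. The sequences come from the RefSeq promoter table of GRCm38.p6 and are written on the gene's strand, 10 bases before to 20 bases from the annotated start. Capitals mark the pyrimidine run where the start matches the motif searched, a C at the first base followed by at least 4 pyrimidines. Rps6 lies on the minus strand at chr4:86857348-86857377, Rps18 on minus at chr17:33955646-33955675, Rps15a on minus at chr7:118116128-118116157, and Rps10 on minus at chr17:27635225-27635254. Rps27 lies on minus at chr3:90213629-90213658, Rps27rt on minus at chr9:114982720-114982749, and Rps27l on plus at chr9:66946076-66946105.
Rps6: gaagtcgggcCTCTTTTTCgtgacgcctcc
Rps18: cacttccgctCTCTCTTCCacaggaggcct
Rps15a: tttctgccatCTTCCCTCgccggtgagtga
Rps10: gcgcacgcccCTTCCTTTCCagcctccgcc
Rps27: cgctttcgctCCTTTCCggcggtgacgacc
Rps27rt: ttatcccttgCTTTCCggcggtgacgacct
Rps27l: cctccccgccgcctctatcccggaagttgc

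The pyrimidine run was 10 bases long in Rps10, 9 in Rps6 and Rps18, 8 in Rps15a, 7 in Rps27 and 6 in the retrocopy Rps27rt. The paralog Rps27l has no run at its annotated start, which is a G. The bases right after that G, cctct, would match the motif. Whether the start of Rps27l is annotated at the exact base was not tested. The table held 65 of the 85 members, and 14 of these (21.5%) had the motif exactly at an annotated start, against 813 of all 27025 genes in the table (3.01%). The heptamer CCGGAAG, searched on both strands of the 300-base promoter window, stood in 25 of the 65 (38.5%) and in 9.93% of all genes. A match is only a match of letters, and a start annotated a few bases away hides a TOP run.

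The share of counts on the set differed more within the groups than between them. The members took 1.16% of the counts in tumour 1, 0.997% in tumour 2, 1.00% in tumour 4 and 1.05% in tumour 3. They took 0.903% in non-tumour 1 and 1.22%, 1.13% and 1.19% in non-tumour 2, 3 and 4. The highest and the lowest share both belonged to non-tumour pieces. Over profiles the share was 1.07% ± 0.0822 (SD, n = 3) in tumour and 1.04% ± 0.196 (SD, n = 2) in non-tumour, a difference smaller than either SD.

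The members moved together from profile to profile. After subtraction of each gene's mean over the 5 profiles, the 81 members with enough reads to be tested had a median log2 deviation of 0.14 in tumour 1. The median was -0.21 for tumour 2/4 and 0.18 for tumour 3. It was -0.30 in non-tumour 1 and 0.22 in non-tumour 2/3/4. Tumour 1, tumour 3 and non-tumour 2/3/4 were thus high and tumour 2/4 and non-tumour 1 low, and the groups overlapped. Of the 81 members, 67, 1 and 67 lay above their own mean in tumour 1, 2/4 and 3, and 2 and 78 in non-tumour 1 and 2/3/4. Among all genes tested the share above the mean ran from 46.4% to 51.8%.

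**Figure D1:**
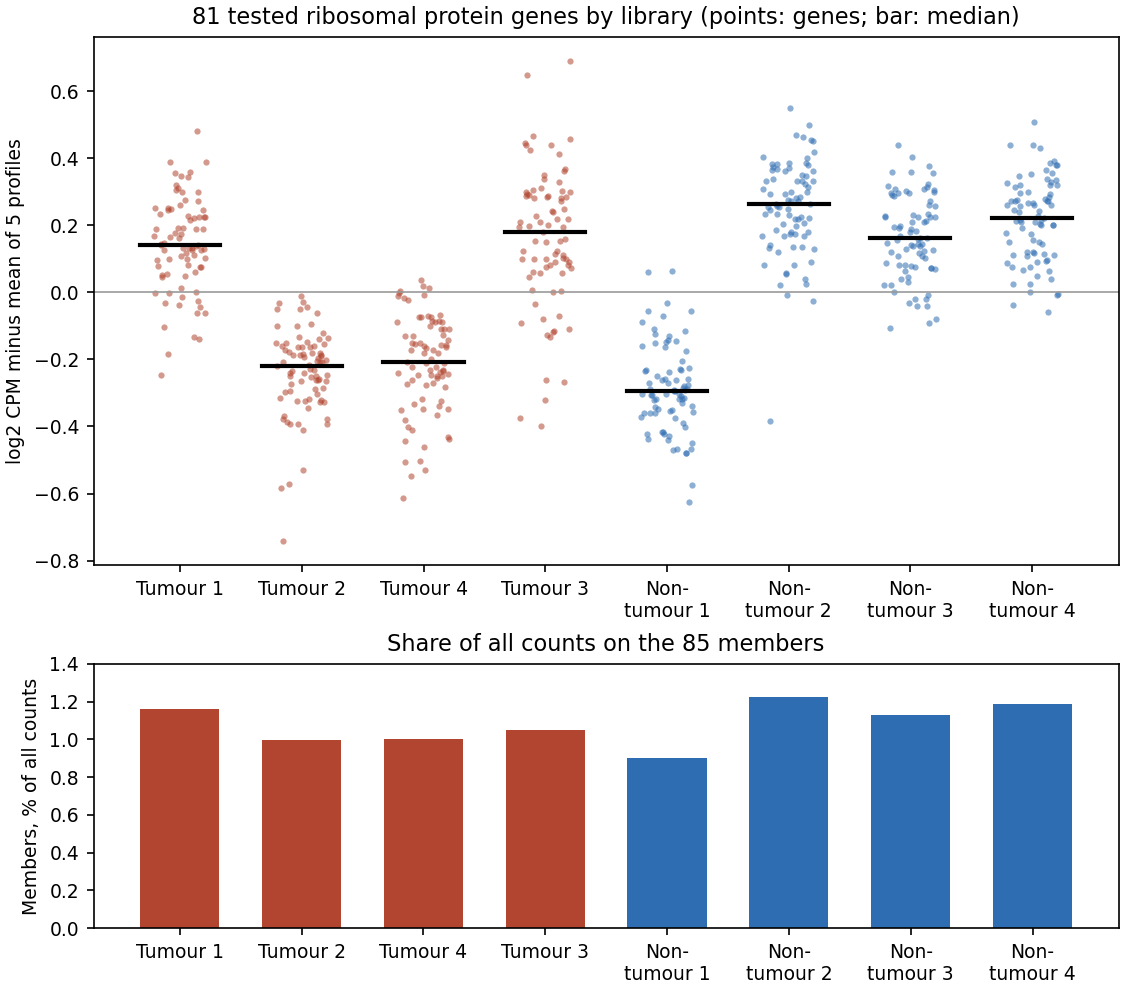
Upper panel: log2 CPM of each of the 81 tested members in each library minus its mean over the 5 profiles (points), with the median as a bar. Lower panel: percent of all counts on the 85 members; tumour is red and non-tumour blue. Tumours 2 and 4 and non-tumour 1 lie below 0 at their medians and the other libraries above it, so the groups overlap.

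The non-tumour profiles lay far apart. With TMM scaling, their members differed by a median of -0.50 log2 units, non-tumour 1 against 2/3/4. The widest gap of any pair was then 0.51, tumour 3 against non-tumour 1. Non-tumour 1 was below non-tumour 2/3/4 in 80 of 81 members, with a median ratio of 0.706, while 49.4% of all genes were higher in non-tumour 1. Tumour 2/4 was below non-tumour 2/3/4 in 81 of 81 members (median ratio 0.724) and below tumour 1 in 80 of 81. Tumour 1 and tumour 3 could not be ordered with TMM scaling: 40 members were higher in tumour 1 and 41 in tumour 3. For the 78 members with 1000 or more reads, the median of the set held 68.9% of the variance over profiles.

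The positions were also taken with another scaling. With library size alone in place of TMM scaling, the set medians were 0.14, -0.09 and 0.05 in tumour 1, 2/4 and 3 and -0.25 and 0.16 in non-tumour 1 and 2/3/4. Every profile kept its sign, but tumour 3, whose set median was above that of tumour 1 with TMM scaling, was now below it. The set medians farthest apart were now those of non-tumour 1 and 2/3/4. The median over all genes moved in the same direction as that of the members, from 0.01 to 0.12 in tumour 2/4 and from -0.01 to -0.12 in tumour 3. In these profiles the members' median thus came closer to 0, and that of all genes moved away from it. Kupffer cell markers summed to 465 CPM in non-tumour 1 and to 138 to 181 CPM in the other profiles, and endothelial markers to 222 CPM there and 97.8 to 139 CPM elsewhere. Their part in the low ribosomal protein level of non-tumour 1 was not tested.

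Levels of the members, given as CPM per kilobase of 1 chosen protein-coding transcript, spread widely. The highest was Rplp1, an acidic protein of the stalk that recruits translation factors, at 589 CPM per kilobase as a mean over the 5 profiles. Rps15 at 394 and Rps29 at 387, both of the small subunit, came next. Among the 74 core subunits with 1000 or more reads the levels ran from 15.1 in Rpl13a to 589 in Rplp1.

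Rps10 and Rpl24 stood far below every other core subunit. Rps10, a small subunit protein, had 14, 11, 10 and 21 reads in tumours 1, 2, 4 and 3 and 18, 17, 17 and 14 reads in non-tumour 1, 2, 3 and 4. Rpl24, a large subunit protein, had 21 reads in all 8 libraries together, between 1 and 4 in each. Low counts were thus found in every library of both groups, with no order between them.

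Rps10 and Rpl24 share exons with other annotated genes. In the annotation, 53.6% of the Rps10 transcript lies under the read-through gene RPS10-NUDT3 and 71.5% of the Rpl24 transcript under Gm28037, on the same strand. The other members with over 50% of the transcript under another gene were Rpl36al (63.1%, Gm49383) and Rpl13a (59.3%, Gm45713 and Mir5121), with 397 and 2276 reads in all. In 80 of the 85 members no base was overlapped. The command in the file headers sets no option to count reads that fall on several genes. How many reads this cost these 4 members, and its part in their low counts, was not tested. Rps10, with the smallest overlap of the 4, had 122 reads in all. Rps10 lies at chr17:27630418-27636669 and Rpl24 at chr16:55966275-55971435 in GRCm38.

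**Figure D2:**
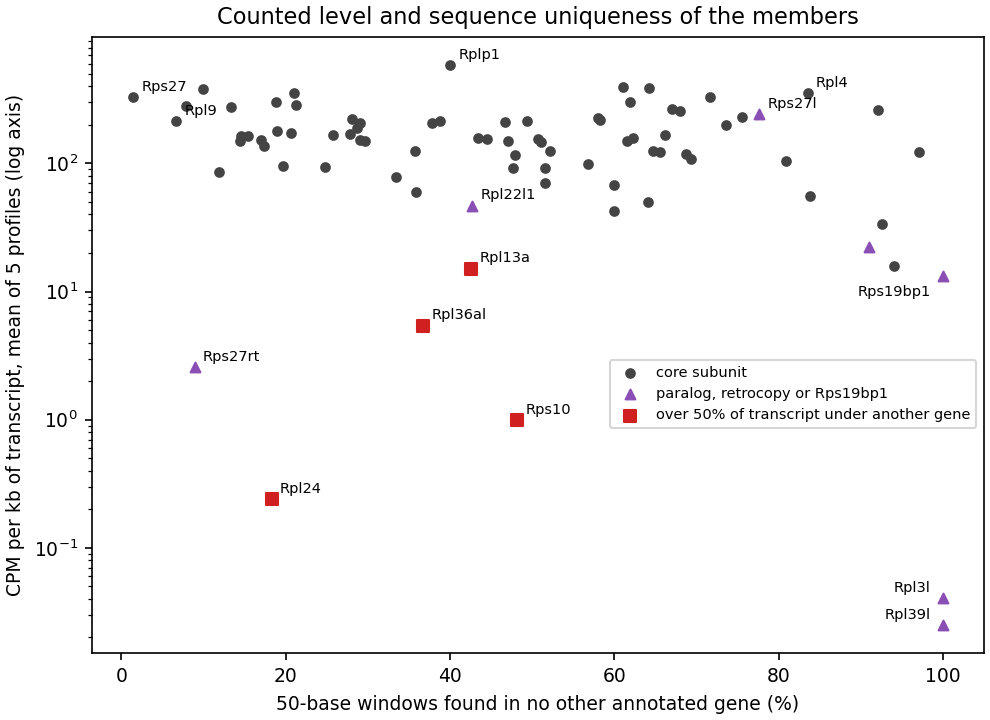
Level of the members with reads, 2 left out (CPM per kilobase of transcript, mean over the 5 profiles, log axis) against the percent of its 50-base windows found in no other annotated gene. Dark circles are core subunits, purple triangles paralogs, retrocopies and Rps19bp1, and red squares the 4 members with over 50% of the transcript under another gene; Rps10 and Rpl24 lie at 0.993 and 0.241, while Rps27 with 1.4% unique windows lies at 328.

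Many members have sequence in common with pseudogene copies. The command in the headers sets no option to count reads that map to several places, and a median of 47.9% of a member's 50-base windows occurred in no other annotated gene. In 17 members under 20% of the windows were unique. Rps27 had the fewest at 1.4%, since 98.6% of its windows also occur in the retrocopy Rps27rt, and Rpl9 had 6.7%. Rpl3l, Rpl39l and Rps19bp1 were among the 4 members that were unique throughout.

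Level and uniqueness were only weakly related. The median level of the core subunits was 175 CPM per kilobase in the 20 members under 25% unique and 122 in the 9 members at 75% or more, and Spearman's rho over the 76 core subunits was -0.12. Per kilobase of coding sequence rho was 0.30, so the sign of this relation depends on the length used. These are descriptions across genes of the same libraries, and genes are not independent replicates. The read length is not given in the sources used here, so the share of reads lost to copies was not tested. The 291 -ps copies together held 4827 reads, 0.306% of the reads on members and copies, and 117 of the copies held none.

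No member passed the test between tumour and non-tumour pieces. Of the 85 members 81 passed the filter on low counts, and Rpl3l, Rpl39l, Rpl10l and Rpl24 did not. With edgeR's quasi-likelihood test over the 5 profiles and Benjamini-Hochberg adjustment over all 13650 genes tested, 0 of the 81 tested members and 0 genes in all (0%) passed an adjusted p of 0.05. At an unadjusted p under 0.05, 0 members and 451 genes (3.30%) passed; limma voom called 0 genes and DESeq2 called 2 (0.0147%), neither a member, and had 577 genes (4.23%) and 0 members at an unadjusted p under 0.05. The smallest unadjusted p of a member was 0.226 and the smallest adjusted p 0.995. No member's profiles were free of overlap between the groups, and of all genes 10% were higher in every tumour profile and 8.32% lower. With 3 against 2 profiles, such shares can arise when the groups do not differ. The members moved together from profile to profile, so they are not separate observations.

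The fold changes of the members were small. Of 81 members, 50 had a positive log2 fold change, tumour over non-tumour, and 31 a negative one, and of all genes 52.2% were positive and 47.8% negative. The median was 0.05 log2 units over the members and 0.01 over all genes. Every member lay within 0.5 log2 units of 0, from -0.31 in Rpl41 to 0.37 in Rpl31, with standard errors of 0.16 to 0.63. The median size of the change, whatever its sign, was 0.10 in the members and 0.20 in all genes, which were not matched to the members in level.

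**Figure D3:**
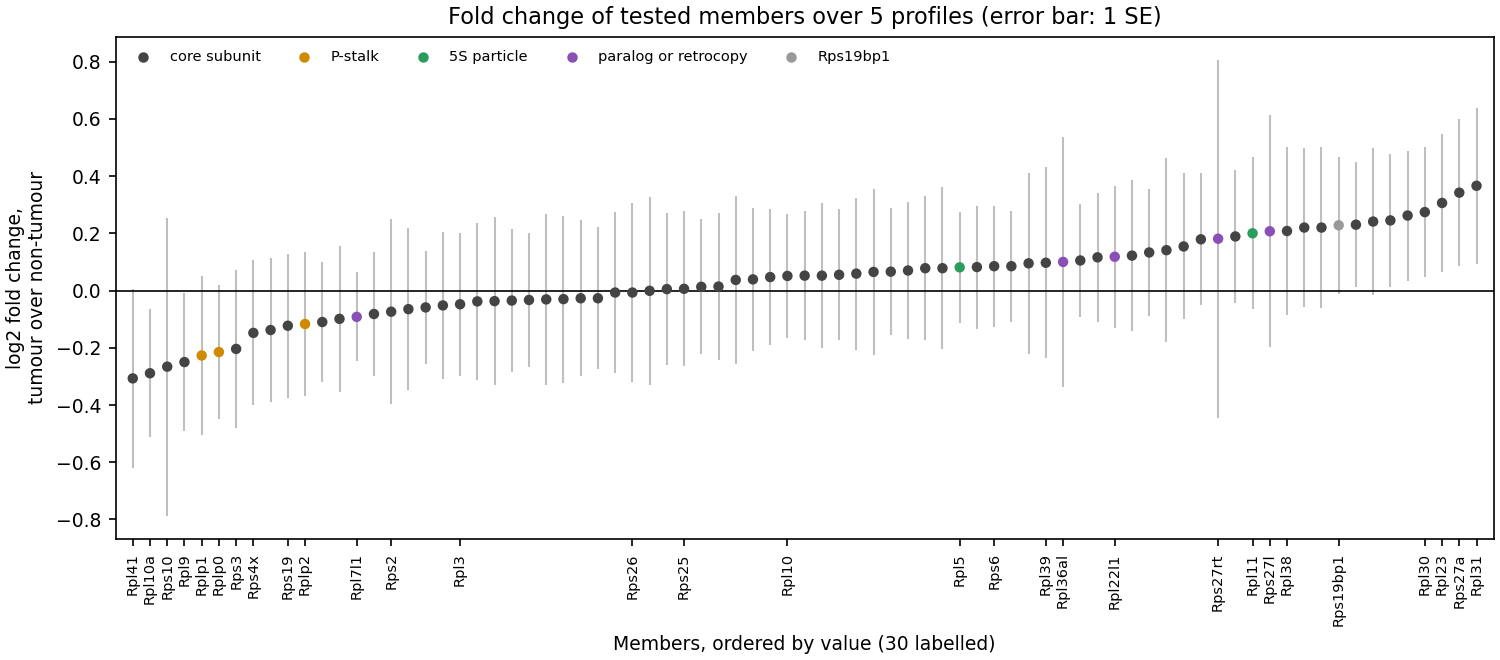
Log2 fold change, tumour over non-tumour, of 79 of the 81 tested members over 5 profiles, ordered by value, with error bars of 1 standard error. Colours mark the P-stalk, the 5S particle, paralogs and Rps19bp1; the values run from -0.31 (Rpl41) to 0.37 (Rpl31), and none passed the test.

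The largest positive value belonged to Rpl31, a protein at the exit of the peptide tunnel. It stood at 113, 81.1, 81.4 and 132 CPM in tumours 1, 2, 4 and 3 and at 70.4, 94.5, 101 and 95.9 CPM in non-tumour 1, 2, 3 and 4. Tumours 1 and 3 were above every non-tumour piece, and tumours 2 and 4 lay among them. The log2 fold change was 0.37 ± 0.27 (SE, adjusted p = 0.995, edgeR). It was 0.14 without non-tumour 1, 0.20 without tumour 3, 0.62 without non-tumour 2/3/4 and 0.17 with 8 separate libraries.

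Rps27a, which is made as a fusion with ubiquitin, showed the next value. It stood at 195, 122, 133 and 145 CPM in tumours 1, 2, 4 and 3 and at 106, 144, 136 and 134 CPM in non-tumour 1, 2, 3 and 4. Tumour 1 was the highest library, tumour 3 lay just above the highest non-tumour piece, tumours 2 and 4 lay among the non-tumour pieces, and the groups overlapped. The log2 fold change was 0.34 ± 0.26 (SE), with 0.15 without tumour 1, 0.16 without non-tumour 1 and 0.55 without non-tumour 2/3/4. Rpl23 and Rpl30 were also among the 5 highest, with log2 fold changes of 0.31 and 0.27 and the same adjusted p of 0.995 (edgeR). Without non-tumour 1 both were at 0.08, and without non-tumour 2/3/4 at 0.56 and 0.48; Rpl30 was at 0.13 without tumour 1.

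The lowest value belonged to Rpl41, the shortest of the ribosomal proteins. It stood at 148, 83.1, 83.1 and 110.0 CPM in tumours 1, 2, 4 and 3 and at 109.9, 176, 159 and 171 CPM in non-tumour 1, 2, 3 and 4. Tumours 2 and 4 were lowest, non-tumour 2, 3 and 4 highest, and tumour 1 lay above non-tumour 1. The log2 fold change was -0.31 ± 0.31 (SE, adjusted p = 0.995, edgeR), and without the non-tumour 2/3/4 profile it was 0.04. It was -0.54 without tumour 1, -0.60 without non-tumour 1 and -0.13 without tumour 2/4. Rpl10a, Rps10 and Rpl9 followed at -0.29, -0.27 and -0.25. Without non-tumour 2/3/4, Rpl10a was at -0.05 and Rpl9 at 0.03, and without tumour 2/4 Rps10 was at 0.01.

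By role, the 3 proteins of the P-stalk, which binds the translation factors, all had negative log2 fold changes, with a median of -0.21 and no member called. Rplp0, the base of the stalk, stood at 334, 264, 265 and 247 CPM in tumours 1, 2, 4 and 3 and at 289.5, 383, 337 and 355 CPM in non-tumour 1, 2, 3 and 4. For Rplp1 the tumour values were 311, 217, 209 and 304 CPM, in the same order, and the non-tumour values 261.5, 377, 370.1 and 391 CPM. Tumour 1 was above non-tumour 1 for Rplp0, Rplp1 and Rplp2, so the groups overlapped in each. Without non-tumour 2/3/4 the log2 fold changes of Rplp0, Rplp1 and Rplp2 were -0.05, 0.07 and 0.21, so the common sign rests on that profile. The shift was not particular to the stalk: the median over all tested members moved from 0.052 to 0.339 in that setting. All 3 stalk proteins stayed below that median.

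Rpl5 and Rpl11, which form the 5S particle with the 5S rRNA and can bind the p53 regulator Mdm2, had log2 fold changes of 0.08 ± 0.19 and 0.20 ± 0.27 (SE). Rpl5 was among the steadiest members, at 128 to 164 CPM over the 8 libraries. Of the other tested large subunit proteins 26 were positive and 14 negative (median 0.06), and of the small subunit proteins 17 and 13 (median 0.01). Rps6, the substrate of the S6 kinases, was at 0.09 ± 0.21, and Rps19, the gene most often mutated in Diamond-Blackfan anaemia, at -0.12 ± 0.25. Without non-tumour 1, Rpl5, Rpl11 and Rps6 were at -0.03, -0.08 and -0.08, and without non-tumour 2/3/4 Rps19 was at 0.26.

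Other members known for a role of their own were not called either. Rpl38, needed for the translation of some Hox mRNAs, stood at 45.1, 32.6, 35.3 and 56.5 CPM in tumours 1, 2, 4 and 3 and at 29.9, 47.0, 47.2 and 48.7 CPM in non-tumour 1, 2, 3 and 4 (log2 fold change 0.21 ± 0.30, SE; -0.10 without non-tumour 1). Rps25, used by several viral internal ribosome entry sites, was at 0.01 ± 0.27, and Rps26, which contacts mRNA at the exit channel, at -0.01 ± 0.31. Rpl10, which completes the large subunit late in its assembly, was at 0.05 ± 0.22, and Rpl3, at the peptidyl transferase centre, at -0.05 ± 0.25. The standard error was larger than the value in Rpl38, Rps25, Rps26, Rpl10 and Rpl3, and each of the 5 changed sign when 1 profile was left out.

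When all 8 libraries were entered as separate replicates, 56 of 12880 genes were called (0.435%) and again 0 members. At an unadjusted p under 0.05 that fit held 4 members, Rpl9, Rpl41, Rplp1 and Rpl10a, all lower in tumour, against 18.0% of all genes. Only 16 of the 81 members were then positive and their median was -0.14, so the sign of the set's median depends on whether near-identical libraries are counted once.

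The members stood farthest apart from the set in tumour 3. After subtraction of the set median, the 10th to 90th percentile of the members ran from -0.30 to 0.23 log2 units there and lay within -0.19 to 0.18 in the other 4 profiles. Rps3 was at -0.58 in tumour 3 and between 0.06 and 0.23 in the other 4 profiles. Rps4x was at -0.56, Rpl3 at -0.50, Rpl9 at -0.45 and Rplp0 at -0.44 there. Rps27l at 0.51, Rps2 at 0.29, Rpl31 at 0.28 and Rps26 at 0.25 were on the other side. These genes were chosen for display after their values were seen, from those the naming rule allows.

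**Figure D4:**
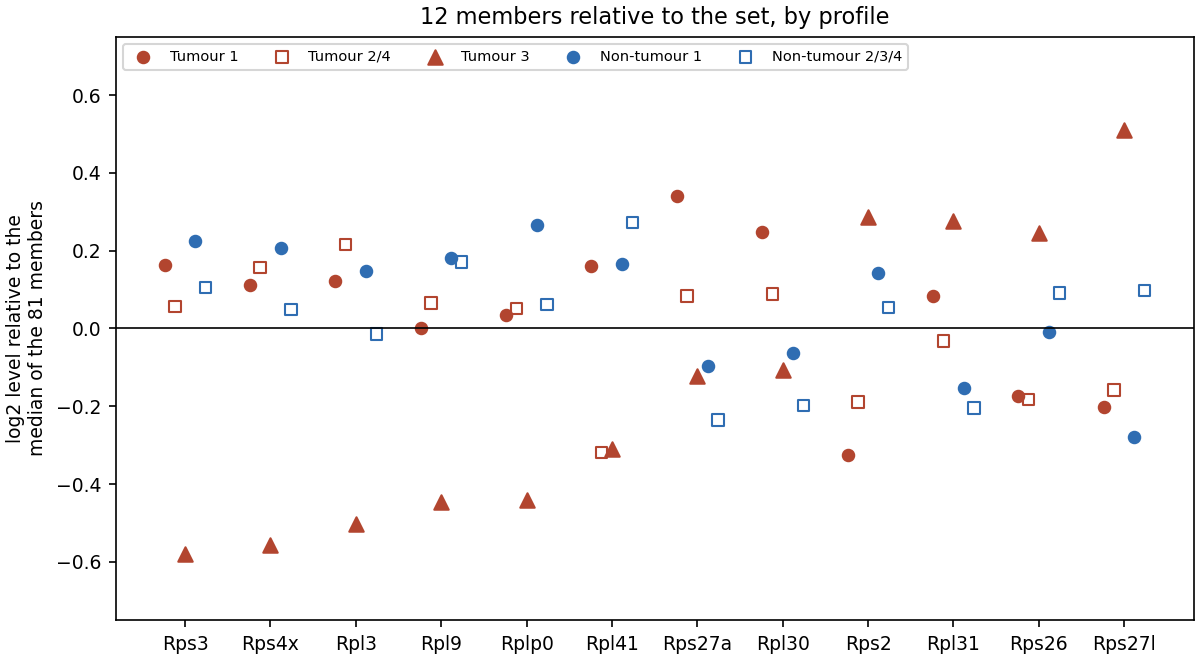
Log2 level of 12 members relative to the median of the 81 tested members in each of the 5 profiles; tumour is red and non-tumour blue. The tumour 3 triangles lie lowest for Rps3, Rps4x, Rpl3, Rpl9 and Rplp0 and highest for Rps2, Rpl31, Rps26 and Rps27l.

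In CPM, Rps3, which lines the mRNA entry channel, stood at 173 in tumour 3 against 282, 204 and 206 in tumours 1, 2 and 4 and 217 to 294 in the non-tumour pieces. Rps2, its neighbour at the entry channel, stood at 481 in tumour 3 against 306, 265 and 262 in tumours 1, 2 and 4 and 313 to 427 in the non-tumour pieces. Tumour 3 was thus the lowest library for Rps3 and the highest for Rps2. Tumour 3 is 1 library, so this has no replicate check.

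The relation of these relative levels to the length of the coding sequence differed between profiles. Spearman's rho over the 81 members was -0.01, 0.45 and -0.37 in tumour 1, 2/4 and 3 and 0.39 and -0.17 in non-tumour 1 and 2/3/4. Over 12542 genes it was 0.09, 0.20 and -0.25 in the tumour profiles and 0.24 and -0.15 in the non-tumour profiles. Over the 5610 genes with a coding sequence no longer than the longest member's it was -0.01, 0.18 and -0.17, and 0.18 and -0.08. Members and all genes thus had the same sign in tumour 2/4, tumour 3 and both non-tumour profiles, and tumour 1 was near 0. The points share a library, and the part of RNA quality or library preparation in this was not tested.

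The steadiest member was Rpl7l1, a nucleolar paralog of Rpl7 that acts in ribosome assembly, with an SD of 0.08 log2 units over the 5 profiles. It stood at 60.1, 56.4, 58.7 and 52.9 CPM in tumours 1, 2, 4 and 3 and at 60.7, 61.6, 57.3 and 60.1 CPM in non-tumour 1, 2, 3 and 4. Rpl5 and Rpl4 followed at 0.14 each. The most variable were Rps27l (0.51), Rps27rt (0.45) and Rpl39 (0.425), against a median of 0.27 in members and in all genes. Rps27rt had only 7 to 27 reads per library, 124 in all. Its near-identical libraries differed by up to 0.674 log2 units, more than its SD over profiles, so counting error cannot be told apart from variation there. All genes include many at lower levels. The median SD was 0.271 in the 78 members with 1000 or more reads. It was 0.226 in the 6832 genes at or above the level of the lowest such member.

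Some paralogs can take the place of their partner in the ribosome, and 4 pairs had enough reads to compare. Rpl22l1, the paralog of Rpl22, was at 23.3%, 18.5% and 19.7% of Rpl22 per kilobase of transcript in tumour 1, 2/4 and 3 and at 18.6% and 21.4% in non-tumour 1 and 2/3/4. Rps27l, a target of p53, was at 64.5%, 67.0% and 97.5% of Rps27 in tumour and at 58.5% and 74.5% in non-tumour. Tumour 3 was highest for that pair, and the groups overlapped in each. The size of a ratio depends on the length used: as a mean over profiles Rps27l was at 74.0% of Rps27 per transcript kilobase, 107% per coding kilobase and 137% per exon kilobase, so which gene is higher cannot be told. Rps27 also has only 1.4% unique windows. Rpl22l1 was at 20.5% of Rpl22 per transcript kilobase and 34.9% per exon kilobase, with the coding value between them.

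Rpl7l1 was at 9.48%, 11.6% and 9.77% of Rpl7 in the tumour profiles and at 13.8% and 9.72% in the non-tumour profiles; the mean was 10.7% per transcript, 26.2% per coding and 18.4% per exon kilobase. Rpl36al was at 3.06%, 2.20% and 4.16% of Rpl36a in tumour and at 3.63% and 3.35% in non-tumour, with Rpl36al among the overlapped genes above. The tissue-restricted paralogs were close to absent. Rpl3l, known from heart and skeletal muscle, had 8 reads in all 8 libraries, Rpl39l, known from testis, had 2, and Rpl10l, also known from testis, had 0, which allows up to 0.137 CPM in the deepest and 0.205 CPM in the shallowest library. Such floors cover counting error only.

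**Figure D5:**
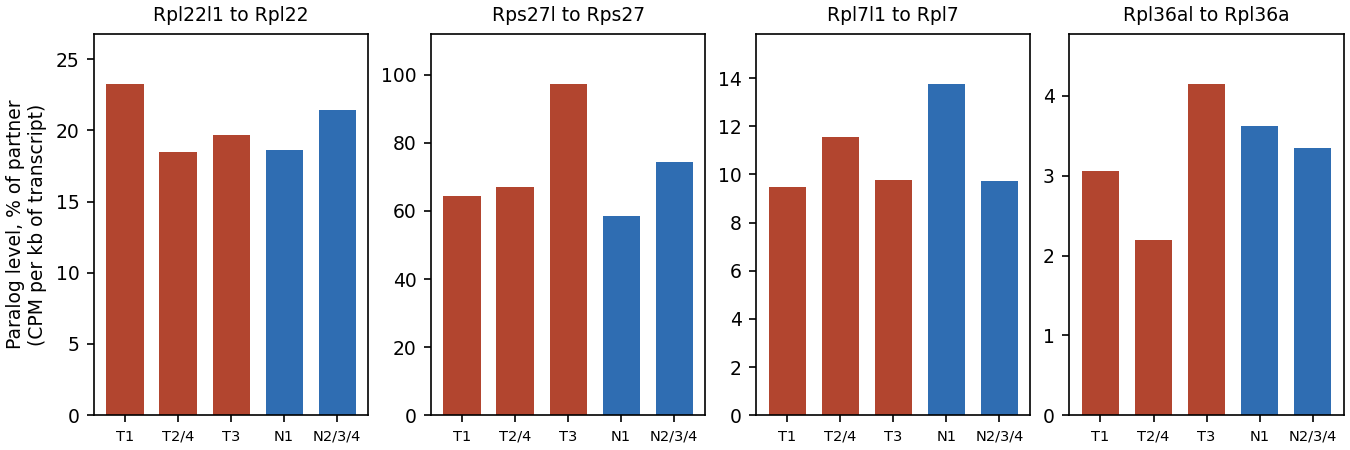
Level of 4 paralogs as percent of their partner, in CPM per kilobase of transcript, in tumour 1, 2/4 and 3 (red) and non-tumour 1 and 2/3/4 (blue); bars start at 0 and each panel has its own axis. Rps27l runs from 58.5% to 97.5% of Rps27, and Rpl22l1 from 18.5% to 23.3% of Rpl22; by coding or exon length Rps27l is above Rps27 in the mean (107% and 137%).

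Genes around the ribosome gave no call either. Of the cytosolic ribosomal proteins outside the name pattern, Fau, made as a fusion with a ubiquitin-like protein, stood at 78.8, 67.8 and 91.1 CPM in tumour 1, 2/4 and 3 and at 68.2 and 98.6 CPM in non-tumour 1 and 2/3/4. Its log2 fold change was -0.09 ± 0.24 (SE). Rpsa and Rack1, both of the small subunit, were at -0.04 ± 0.27 and -0.04 ± 0.25. Of 18 translation factors and other TOP mRNAs 8 were positive (median -0.03). Hnrnpa1, an RNA-binding protein, was at 0.32 ± 0.15 (SE), Eif4b at -0.30 ± 0.21 and Eef2, the translocation factor, at -0.35 ± 0.26. Of 30 genes of ribosome assembly and RNA polymerase I 20 were positive (median 0.08), with Nop58, a core protein of small nucleolar RNPs, at 0.56 ± 0.23, Taf1d at 0.44 ± 0.20 and Gnl3 at 0.28 ± 0.15.

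Of 14 growth control genes 9 were positive (median 0.09). Mycn, a transcription factor of the Myc family, stood at 2.73, 2.31 and 2.16 CPM in tumour 1, 2/4 and 3. It stood at 1.21 and 0.36 CPM in non-tumour 1 and 2/3/4, without overlap, at an adjusted p of 0.995 (edgeR). In non-tumour 2, 3 and 4, 3 reads equal 0.175, 0.205 and 0.187 CPM, so 0.36 CPM rests on few reads. On this list Mtor was also higher and Eif4ebp2 lower in tumour without overlap. Of all genes 10% were higher and 8.32% lower without overlap. Of 77 tested mitochondrial ribosomal proteins 44 were positive (median 0.07), and of 77 nuclear respiratory chain subunits 46 (median 0.03). Both of these lists were highest in tumour 3, at medians of 0.34 and 0.49, where the cytosolic members stood at 0.18. None of the genes on these lists passed the adjusted threshold in the edgeR fit.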

How the data were processed

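RNA was sequenced from 8 liver pieces with an Illumina mRNA kit, per the labels' protocols. The authors deposited raw read counts per gene, made with featureCounts 1.6.2 over exons of Ensembl release 95 (GRCm38) at strand setting 2, without options for multi-mapping or overlapping reads, per the file headers. STAR 2.5.0 and Subread 1.6.2 are named in the submitters' processing notes.

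Members and gene lists were chosen with earlier results of these data known. Libraries with a chi-square per degree of freedom under 10 were summed. The test was that of edgeR 4.0.16, run in R 4.3.3 (TMM, filterByExpr with minimum count 10 and total 15, robust quasi-likelihood test, Benjamini-Hochberg adjustment over all genes, threshold 0.05). The standard error is the log2 fold change over the root of F. CPM use TMM-scaled library sizes, and 0.5 was added before log2. Symbols matched 54809 of 54838 IDs. Transcript and coding lengths, 50-base windows and overlaps come from GENCODE M21 on GRCm38, a neighbouring release, in which 83 members have the same coordinates. For each gene 1 protein-coding transcript was used, by APPRIS rank, then support level, then the shortest; taking the shortest, not the longest, was decided after seeing the data. Scripts were tested on simulated data. Alternatives were other scalings, filters, limma 3.58.1 voom, DESeq2 1.42.0, 8 separate libraries, a replicate block and leaving out libraries.

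Some items are not reported here. Members named are a set panel, the extremes of level, fold change and SD, up to 3 genes of each other list with the lowest p-values, and any set of 5 or fewer that a count refers to. Replicate numbers were not used to pair samples.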

Additional observations from a re-analysis of the deposited data

How the results depend on the processing

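No member was called under any setting run. The count of all genes called was 0 over 5 profiles, 56 with 8 libraries as separate replicates, 427 with no expression filter, 2 with DESeq2 and 0 to 5 when libraries were left out (5 without tumour 3). Same-numbered tumour and non-tumour libraries had correlations of deviations of 0.342, -0.154, 0.284 and -0.138; numbers 2, 3 and 4 share near-identical libraries, so pairing was hardly testable. With a replicate block on the 8 libraries, 0 genes and 0 members were called and the members' median log2 fold change was -0.141; without the block it was -0.143, against 0.052 over 5 profiles. Leaving out libraries moved that median from -0.201 to 0.339, the highest without non-tumour 2/3/4, and the tumour to non-tumour ratio of the members' share of counts (1.03) from 0.908 to 1.19. Log2 fold changes turned in sign on leaving out libraries for Rpl41 (-0.60 to 0.04), Rps10 (-0.76 to 0.01), Rpl9 (-0.49 to 0.03), Rplp1 (-0.48 to 0.07), Rps3 (-0.42 to 0.01), Rplp2 (-0.39 to 0.21), Rpl5 (-0.03 to 0.20), Rpl11 (-0.08 to 0.54), Rps6 (-0.08 to 0.27), Rps19 (-0.43 to 0.26), Rpl38 (-0.10 to 0.59), Rps25 (-0.29 to 0.37), Rps26 (-0.29 to 0.34), Rpl10 (-0.17 to 0.30) and Rpl3 (-0.22 to 0.14); the cause was not tested. In the other settings 216 of 230 values of 21 named members kept their direction. With 8 separate libraries Rps6 was at -0.04, Rpl38 at -0.03, Rps25 at -0.19 and Rpl10 at -0.06, and with the replicate block at -0.04, -0.03, -0.18 and -0.05. Rps25 was at -0.03 with no filter and at -0.00 with DESeq2 size factors or the DESeq2 test. Rps26 was at 0.02 with upper-quartile scaling, 0.01 with the 1 CPM filter and 0.05 with voom. The smallest adjusted p of a named member over all settings was 0.182 (8 libraries, edgeR). By exon, transcript and coding length, Rplp1 ranked 1, 1 and 3 and Rpl17 ranked 3, 12 and 14 in level. Coding length from a protein table was not run; that from GENCODE M21, like its transcript length, was added after seeing the data. With 3 against 2 profiles, only large differences can be called.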
